A study of Homo sapiens with 12 samples.

Results

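Expression of 9 genes that mark megakaryocytes and platelets was followed through an exposure of K-562 cells to Si-711, which the series title names a dual inhibitor of the protein deacetylases sirtuin 1 and sirtuin 2. The genes are ITGA2B, ITGB3, GP9, PF4, VWF, THBS1, SELP, PLEK and CD9. They were taken by symbol from the 51112 genes of the deposited table, and all 9 were found. K-562 is an established human line from chronic myeloid leukemia and carries the BCR-ABL1 fusion. Cells in exponential growth received 5 µM Si-711 for 8, 24 or 48 h or were left untreated, and each of the 4 groups had 3 biological replicates, 12 libraries in all. Neither vehicle-treated cells nor untreated cells kept for the same times were among the samples, so Si-711 itself and time in culture cannot be told apart.

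Megakaryocytes are the bone marrow cells that shed platelets. Platelets hold to a damaged vessel wall through the glycoprotein Ib-IX-V complex, which binds von Willebrand factor, and hold to each other through the integrin made of the alpha IIb and beta 3 chains, which binds fibrinogen. Their alpha granules store proteins such as platelet factor 4, thrombospondin 1 and P-selectin, which are released or moved to the surface on activation. K-562 cells are bipotent and can be driven toward erythroid or megakaryocytic features in culture, and alpha IIb is among the early markers of the megakaryocytic path.

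Promoter sequences of 250 bases before the RefSeq start are shown for ITGA2B and THBS1, the members that rose at all times, and for GP9 and SELP, which stayed at or near 0. RefSeq windows on GRCh38.p14 were matched for 6 of the 9 members. PLEK and CD9 also had a window, and ITGB3, PF4 and VWF are named only. Letters in capitals are matches to the ETS motif (AGGAAG or CGGAAG), the RUNX motif (TGTGGT) or the GATA motif (AGATAA or TGATAA), on either strand. The windows lie at chr17:44389650-44389899 on the minus strand for ITGA2B, chr15:39580829-39581078 on the plus strand for THBS1, chr3:129060529-129060778 on the plus strand for GP9 and chr1:169630125-169630374 on the minus strand for SELP.
ITGA2B: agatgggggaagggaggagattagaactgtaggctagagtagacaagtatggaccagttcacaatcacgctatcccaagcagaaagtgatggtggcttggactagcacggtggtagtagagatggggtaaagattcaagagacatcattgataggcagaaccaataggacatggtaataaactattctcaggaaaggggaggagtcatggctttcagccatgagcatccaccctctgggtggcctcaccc
THBS1: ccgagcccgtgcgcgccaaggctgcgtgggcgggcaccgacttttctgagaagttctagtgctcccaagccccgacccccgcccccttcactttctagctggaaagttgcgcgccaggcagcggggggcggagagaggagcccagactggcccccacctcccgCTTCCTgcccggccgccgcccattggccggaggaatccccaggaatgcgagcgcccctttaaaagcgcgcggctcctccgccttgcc
GP9: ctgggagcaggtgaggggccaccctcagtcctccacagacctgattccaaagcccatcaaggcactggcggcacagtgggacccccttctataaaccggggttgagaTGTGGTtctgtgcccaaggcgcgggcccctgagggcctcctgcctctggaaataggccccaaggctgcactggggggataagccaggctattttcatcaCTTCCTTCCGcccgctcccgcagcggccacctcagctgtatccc
SELP: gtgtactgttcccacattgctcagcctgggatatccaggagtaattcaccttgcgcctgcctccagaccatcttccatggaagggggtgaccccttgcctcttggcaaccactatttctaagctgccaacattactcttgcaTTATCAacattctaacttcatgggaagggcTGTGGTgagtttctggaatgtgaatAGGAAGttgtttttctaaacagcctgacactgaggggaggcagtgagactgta
The ITGA2B stretch held none of these letters, and CTTCCT, which is AGGAAG on the other strand, began at base 2 after its start. The GENCODE start of ITGA2B lies 144 bases downstream of this RefSeq start, and the window searched ended 50 bases after the RefSeq start. The bases directly before the GENCODE start were therefore not searched. THBS1 held CTTCCT at base -87. GP9 held CTTCCT at -44 and CTTCCG at -40, which overlap, and TGTGGT at -143. SELP held TTATCA at -108, TGTGGT at -78 and AGGAAG at -53. Among 35116 RefSeq windows of 300 bases, 46.9% held the ETS motif, 13.1% the RUNX motif and 16.3% the GATA motif. The AP-1 motif TGACTCA, present in 4.95% of windows, was in none of the member windows. These matches are a description of the letters and say nothing of binding.

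The table holds counts that the authors had normalized with DESeq2, and its libraries summed to 27070528 to 37117837 normalized counts, from about 24700000 to 41400000 reads. The value of 1 read was estimated from the low values of each library, at 0.683 to 1.192 normalized counts. Only 51.5 to 73.5% of low values lay within 0.1 of a whole multiple of it, so numbers of reads are approximate. CDKN2A and CDKN2B, which are deleted in K-562, were listed at 0 in all libraries. On the first principal component, with 46.6% of the variance, 24 h replicate 1 lay at 20 and its partners at -10.1 and -8.7, so values at 24 h are also given without it. Genes with at least 10 normalized counts in at least 3 libraries were tested with limma on log2(value + 1), which left 15424 genes and 5 of the 9 members, namely ITGA2B, ITGB3, THBS1, PLEK and CD9. Fold changes below are on this scale, and a gene was called at an adjusted p under 0.05. All 3 comparisons with untreated cells share the same untreated libraries.

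Among the 5 members tested, ITGA2B and THBS1 were higher than in untreated cells at 8 and 24 h, and ITGA2B, ITGB3 and THBS1 at 48 h. The share of all 15424 genes called higher was 13% at 8 h, 22.9% at 24 h and 32.3% at 48 h. By limma, 0 members fell against untreated cells at any time, and none had a lower value at an unadjusted p under 0.05 there. The share of genes called lower was 15.2%, 24.7% and 33.8% at these times. The calls of members against untreated cells were the same without 24 h replicate 1.

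**Figure D1:**
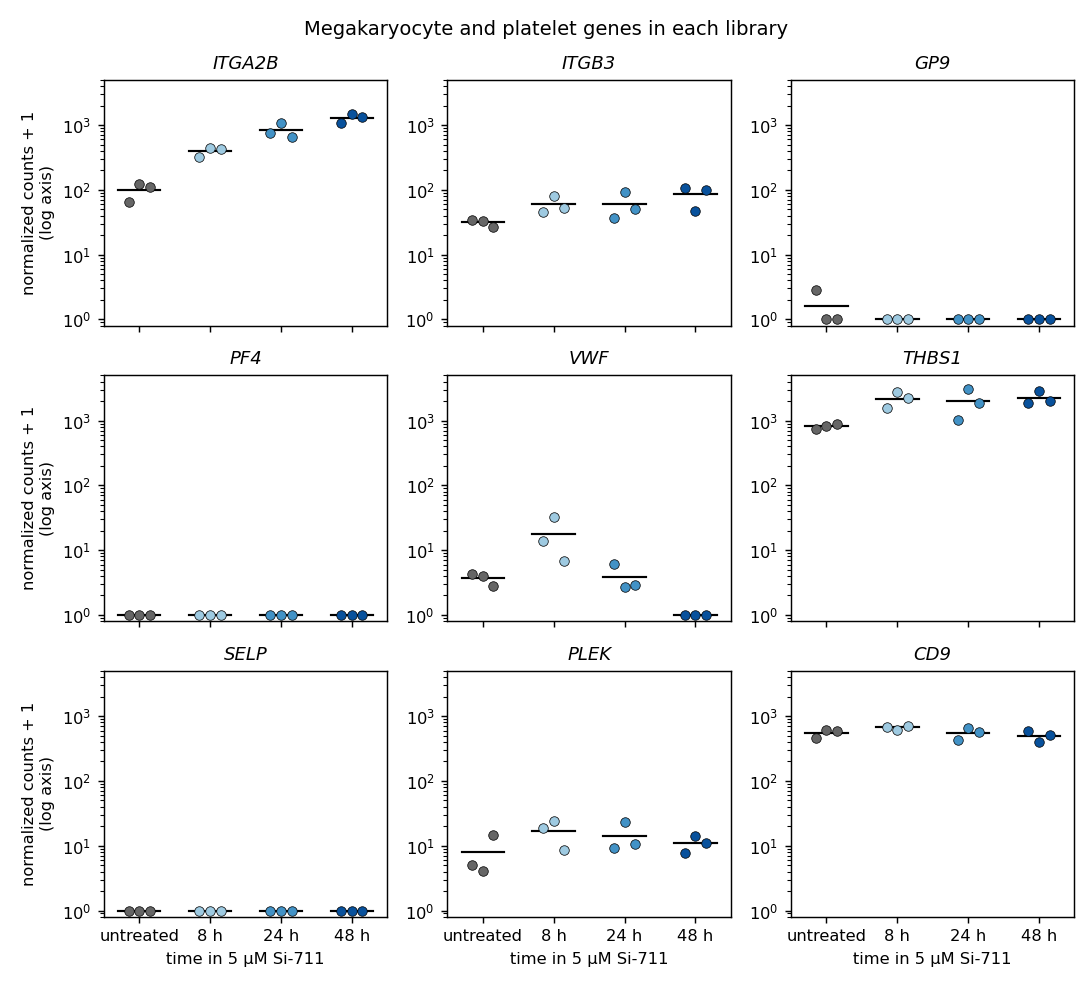
Normalized counts plus 1 of the 9 genes in each library on a log axis, by time in 5 µM Si-711. Each point is a library and each bar the mean of 3. ITGA2B climbs at each time and has at least 1060 normalized counts at 48 h, against at most 124 in untreated libraries, while PF4 and SELP lie at 0 throughout.

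ITGA2B encodes the alpha IIb chain of the platelet fibrinogen receptor (ENSG00000005961, GRCh38 chr17:44372180-44389505, minus strand in GENCODE 29). It had 62.9, 124 and 109 normalized counts in the untreated libraries, 325, 440 and 424 at 8 h, 740, 1090 and 644 at 24 h, and 1060, 1468 and 1308 at 48 h. All treated libraries lay above all untreated ones, the 8 and 24 h groups did not overlap, and the 24 and 48 h groups did, at 1090 and 1060. The means were 98.7 ± 31.8, 396 ± 62, 825 ± 235 and 1279 ± 206 (SD, n = 3 each). ITGA2B was 8.4-fold higher at 24 h (log2 fold change 3.07, SE 0.26, limma adjusted p = 1.86e-06) and 13.2-fold higher at 48 h (3.73, 95% interval 3.17 to 4.28, adjusted p = 4.05e-08) than in untreated cells. Without 24 h replicate 1 the value at 24 h was 3.13. In bulk RNA, more cells with the transcript and more transcript per cell cannot be told apart.

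ITGA2B was the member that also differed between the treated times. It was 3.22-fold higher at 48 h than at 8 h (1.69, SE 0.26, limma adjusted p = 6.83e-05), in a comparison where 29.8% of genes were called higher. The step at 24 h against 8 h was 1.03 (adjusted p = 0.0154, 8.31% of genes called higher), and that at 48 h against 24 h was 0.66 (adjusted p = 0.0451, 25.1% called higher). The call at 24 h against 8 h was lost without 8 h replicate 1 (0.90, adjusted p = 0.0648) or 24 h replicate 2 (0.81, adjusted p = 0.0583). The call at 48 h against 24 h was lost without 8 h replicate 2 (0.66) or 3 (0.66), 24 h replicate 1 (0.60) or 3 (0.50), or 48 h replicate 2 (0.55) or 3 (0.63), without the filter on low values (0.66, adjusted p = 0.0654), and with equal totals (0.28, adjusted p = 0.403). Whether the authors' normalization also corrected for transcript length is not stated in the sources used here, and levels per kilobase below assume that it did not. Per kilobase of exon, its mean level exceeded that of 26.2% of 15286 tested genes without treatment, and of 42.5%, 55.7% and 65.7% after 8, 24 and 48 h. Its fold change ranked 355th, 210th and 162nd of 15424 genes at 8, 24 and 48 h against untreated cells.

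ITGB3 encodes the beta 3 chain that pairs with alpha IIb or with alpha V (ENSG00000259207, chr17:47253846-47311816, plus strand). It had 33.2, 32.4 and 26.1 normalized counts in the untreated libraries, 45, 79.1 and 51.9 at 8 h, 35.8, 92.1 and 49.7 at 24 h, and 105, 46.5 and 100 at 48 h. Every treated library lay above the highest untreated one, and the treated groups overlapped each other. ITGB3 was 2.54-fold higher at 48 h than in untreated cells (1.35, SE 0.41, limma adjusted p = 0.0108). The values at 8 h (0.89, 95% interval -0.00 to 1.78, adjusted p = 0.129) and 24 h (0.83, -0.06 to 1.72, adjusted p = 0.115) did not pass the test. Without 24 h replicate 1 the value at 24 h was 1.13 (adjusted p = 0.054). A readthrough gene on the same strand, AC068234.1 (ENSG00000259753), shares 2266 exonic bases with ITGB3, so reads can be divided between them. It was listed at 22.9 normalized counts in 24 h replicate 3, at 2.06 in 8 h replicate 1, at 2.27 in 24 h replicate 1 and at 0 in the other libraries, and the sum of both genes in 24 h replicate 3 was 72.6.

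The level of ITGA2B relative to ITGB3 was higher in every treated library than in the untreated ones. Per kilobase of exon, ITGA2B was at 1.5, 3.02 and 3.32 times the ITGB3 level in the untreated libraries, 5.72, 4.4 and 6.46 times at 8 h, 16.3, 9.37 and 10.3 times at 24 h, and 8.02, 25 and 10.3 times at 48 h. The untreated libraries were the lowest, the 8 h ones lay between, and the 24 and 48 h ranges overlapped. ITGAV, the alpha V chain that also pairs with beta 3, had 207, 156 and 154 normalized counts per kilobase at 48 h, against 101, 94.7 and 103 in untreated libraries. ITGAV rose at 48 h (0.78, SE 0.13, limma adjusted p = 0.000171), and it is named here after its values were seen. At 48 h the mean ITGA2B level per kilobase was 230 and that of ITGB3 was 19.1, against 17.8 and 6.95 in untreated cells.

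**Figure D2:**
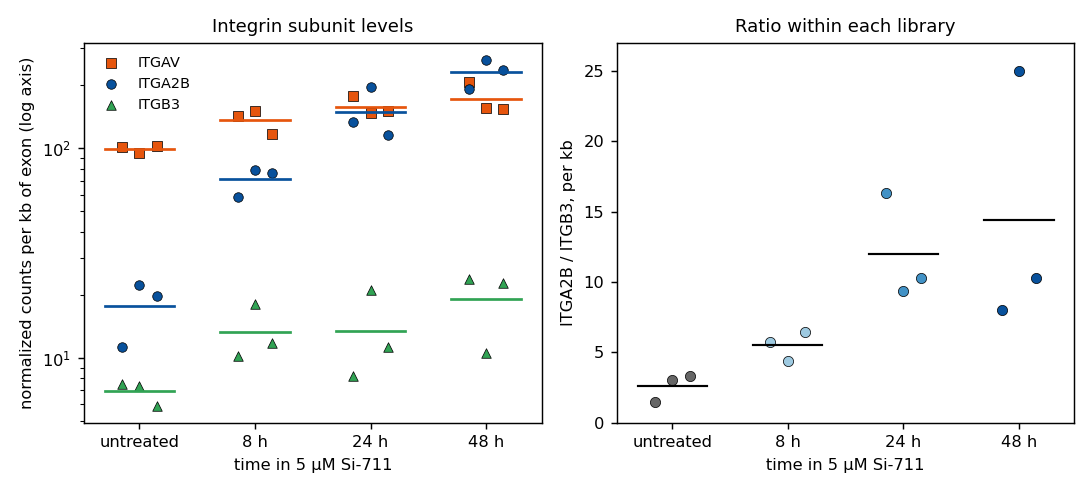
Left, normalized counts per kilobase of exon of ITGAV, ITGA2B and ITGB3 by library on a log axis, with bars at group means. Right, the ratio of ITGA2B to ITGB3 per kilobase within each library on a linear axis. ITGA2B lies below ITGAV in all untreated libraries and above it in 24 h replicate 2 and 48 h replicates 2 and 3.

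THBS1 encodes thrombospondin 1, an adhesive glycoprotein of alpha granules that many other cell types also secrete (ENSG00000137801, chr15:39581079-39599466, plus strand). It had 733, 824 and 877 normalized counts in the untreated libraries, 1562, 2749 and 2200 at 8 h, 1009, 3106 and 1847 at 24 h, and 1853, 2851 and 1993 at 48 h. All treated libraries lay above the untreated ones, and the 3 treated groups overlapped. THBS1 was 2.61-fold higher at 8 h (1.38, SE 0.32, limma adjusted p = 0.00637), 2.22-fold higher at 24 h (1.15, adjusted p = 0.00941) and 2.71-fold higher at 48 h (1.44, adjusted p = 0.00134) than in untreated cells. Without 24 h replicate 1, its lowest treated library, the value at 24 h was 1.56, and without 24 h replicate 2, its highest, it was 0.75 (adjusted p = 0.0404). Between treated times it was not called, with values of -0.24 at 24 h against 8 h (95% interval -0.93 to 0.45), 0.29 at 48 h against 24 h (-0.40 to 0.98) and 0.05 at 48 h against 8 h (-0.64 to 0.74). FSIP1 on the opposite strand shares 448 exonic bases with THBS1 and was listed at 1.39 to 10.9 normalized counts. The sources used here do not state whether the counting used the strand.

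CD9 encodes a tetraspanin of the platelet surface that is also present on many other cells (ENSG00000010278, chr12:6199715-6238271, plus strand). It had 453, 614 and 595 normalized counts in the untreated libraries, 683, 619 and 715 at 8 h, 423, 653 and 576 at 24 h, and 590, 394 and 510 at 48 h. The 8 h libraries lay just above the untreated ones, and the 24 and 48 h libraries overlapped them. Against untreated cells the values were 0.29 at 8 h (95% interval -0.12 to 0.70, limma adjusted p = 0.285), -0.02 at 24 h (-0.43 to 0.39, adjusted p = 0.942) and -0.16 at 48 h (-0.57 to 0.25, adjusted p = 0.47). At 48 h against 8 h it was at -0.45 (-0.86 to -0.04), with an unadjusted p of 0.0336 and a limma adjusted p of 0.0537, while 32.2% of genes were called lower. That comparison passed the threshold when 1 library was left out, namely 48 h replicate 1 (-0.58), 24 h replicate 1 or 2 (both -0.45) or untreated replicate 1 (-0.45), and also with a required mean of at least 50 (-0.45), with the compared groups alone (-0.45) and with equal totals (-0.80, adjusted p = 0.00201). In the setting reported, 0 members fell by limma between treated times, where 9.83% of genes were called lower at 24 h against 8 h and 27.1% at 48 h against 24 h, and CD9 at 48 h against 8 h was the member with an unadjusted p under 0.05.

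PLEK encodes pleckstrin, the main protein kinase C substrate of platelets (ENSG00000115956, chr2:68365173-68397453, plus strand). It had 4.11, 3.03 and 13.6 normalized counts in the untreated libraries, 17.7, 22.9 and 7.66 at 8 h, 8.22, 22.2 and 9.57 at 24 h, and 6.79, 13 and 9.85 at 48 h. All 4 groups overlapped, and untreated replicate 3 lay above several treated libraries. The values against untreated cells were 1.23 (95% interval -0.14 to 2.60), 0.97 (-0.40 to 2.34) and 0.66 (-0.71 to 2.02) at 8, 24 and 48 h, with limma adjusted p = 0.171, 0.229 and 0.375. Its mean level per kilobase was above that of 6.28 to 10.3% of the tested genes, the lowest of the 5 members at each time.

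**Figure D3:**
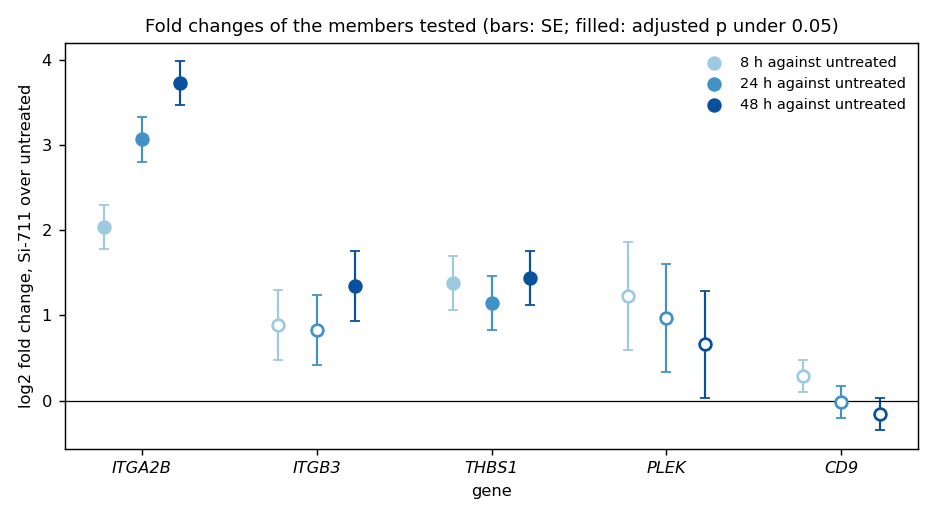
Log2 fold changes of the 5 members tested at 8, 24 and 48 h of Si-711 over untreated cells, with bars at the moderated SE. Filled points have a limma adjusted p under 0.05. ITGA2B climbs with time and reaches 3.73, THBS1 lies between 1.15 and 1.44, and the CD9 points lie between -0.16 and 0.29.

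The other 4 members did not reach the filter. VWF encodes von Willebrand factor, the ligand of the glycoprotein Ib complex (ENSG00000110799, chr12:5948874-6124770, minus strand). It had 3.27, 3.01 and 1.8 normalized counts in the untreated libraries, 12.9, 31.8 and 5.87 at 8 h, and 5.12, 1.71 and 1.88 at 24 h, and it was listed at 0 in all 3 libraries at 48 h. The 8 h libraries lay above all others and the 48 h libraries below all others, and all of these levels correspond to few reads. When all genes were fitted without the filter, VWF was not called at 8 h (limma adjusted p = 0.0573) or 24 h (adjusted p = 1) against untreated cells, and it was called lower at 48 h (adjusted p = 0.0358). GP9, a subunit of the glycoprotein Ib-IX-V complex (ENSG00000169704, chr3:129060767-129062406, plus strand), had 1.82 normalized counts in untreated replicate 1 and was listed at 0 in the other 11 libraries. PF4, the platelet factor 4 chemokine (ENSG00000163737, chr4:73981077-73982124, minus strand), and SELP, P-selectin (ENSG00000174175, chr1:169588849-169630193, minus strand), were listed at 0 in all 12. The single value for GP9 would correspond to about 2 reads at the estimate of 0.922 normalized counts per read in that library.

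The order of the times differed among the members. From the lowest group mean to the highest, ITGA2B ran untreated, 8 h, 24 h and 48 h, with each neighbouring pair called. THBS1 ran untreated, 24 h, 8 h and 48 h, and of these neighbours 24 h and untreated were called different and the others were not. ITGB3 ran untreated, 8 h, 24 h and 48 h, and none of its neighbouring pairs was called. The same lack of calls held for PLEK, which ran untreated, 48 h, 24 h and 8 h, and for CD9, which ran 48 h, 24 h, untreated and 8 h. Replicate 2 was the highest library of its group at 8, 24 and 48 h for both ITGA2B and THBS1. Over the 12 libraries and 11666 genes with a mean of at least 50, the profile closest to that of ITGA2B was RASA4 (Pearson's r 0.988), then MAP3K12 and GABBR1 (both 0.987). TMCO3 was closest to ITGB3 (0.948), BAD to THBS1 (0.943) and FBXW5 to CD9 (0.877). These values describe 12 libraries that share their groups and are not tests.

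Other genes of platelet function were counted in lists chosen by role. Among platelet adhesion receptors, 12 of 15 genes in the table were tested. At 8 h 4 rose, at 24 h 5 rose and 3 fell, and at 48 h 4 rose and 4 fell, the last beside shares of 32.3% higher and 33.8% lower over all genes. At 8 and 24 h these shares were 13% and 22.9% higher and 15.2% and 24.7% lower. The medians were 0.35, 0.43 and 0.04 on the log2 scale, where those of all genes were -0.01, 0.02 and -0.05. The count at 8 h was 2 when untreated replicate 1 or 2 or 8 h replicate 1 or 2 was left out, and with median centring. ITGA5, the fibronectin receptor alpha 5 chain, averaged 3742 ± 169 normalized counts at 8 h, 4438 ± 536 at 24 h and 3706 ± 227 at 48 h, against 1511 ± 86.7 in untreated cells (SD, n = 3 each). It rose at each time (1.31, 1.55 and 1.29, SE 0.09, limma adjusted p = 3.77e-06, 1.8e-07 and 5.68e-08). PEAR1, a receptor for platelet contacts, averaged 190 ± 42.4 at 48 h and 604 ± 88.2 in untreated cells and fell (-1.68, adjusted p = 0.00025). CD36, which binds thrombospondin, averaged 48.4 ± 9.2 at 48 h and 149 ± 52.9 in untreated cells and fell (-1.56, adjusted p = 0.00726). Of the glycoprotein Ib complex, GP1BB was lower at 48 h, with 2593 ± 506 against 4934 ± 404 in untreated cells (-0.94, adjusted p = 0.0018). GP1BA did not exceed 21.8 normalized counts and GP5 did not exceed 2.23 in any library, and these 3 genes are named after their values were seen.

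Genes of integrin activation and platelet signaling rose more often than they fell. Of 21 tested, 10 rose at 8 h, 12 at 24 h and 14 at 48 h, and 2 fell at 24 h and 4 at 48 h, with medians of 0.46, 0.50 and 0.59. The shares of all genes at these times were 13%, 22.9% and 32.3% higher and 15.2%, 24.7% and 33.8% lower. The 4 that fell at 48 h, named after their values were seen, were FYN, LYN, LAT and GNAQ, and 2 fell without untreated replicate 3 or 48 h replicate 1. LAT changed direction with time, as it was called higher at 24 h (1.34, limma adjusted p = 0.0121) and lower at 48 h (-0.98, adjusted p = 0.0409). PLCB2, a phospholipase C downstream of G-protein-coupled receptors, had 1389, 2099 and 1527 normalized counts at 48 h, against 74.7, 48.4 and 117 in untreated cells (4.44, SE 0.28, limma adjusted p = 2.22e-08). LCP2, the SLP-76 adaptor, had 1509, 1484 and 1530 at 48 h, against 36.1, 109 and 252 in untreated cells (3.90, adjusted p = 6.74e-06). The untreated values were unequal, and the value for LCP2 was 3.18 without untreated replicate 1 and 4.56 without replicate 3. PLCG2, a phospholipase C activated through tyrosine kinases, averaged 348 ± 111 at 48 h and 50.9 ± 17 in untreated cells (2.76, adjusted p = 3.51e-06). RASGRP2, the exchange factor that loads RAP1 before integrin activation, rose at 8 h (0.61, adjusted p = 0.0215), 24 h (1.40, adjusted p = 3.39e-05) and 48 h (0.94, adjusted p = 0.000377).

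Of 9 receptors for platelet agonists and cytokines, 5 were tested, of which 3 rose at 8 h and at 24 h, and 2 rose and 2 fell at 48 h. Beside these, 13%, 22.9% and 32.3% of all genes were called higher and 15.2%, 24.7% and 33.8% lower at 8, 24 and 48 h. The medians were 0.94, 0.70 and 0.05. F2RL3, the thrombin receptor PAR4, changed direction with time, with a mean of 507 ± 88.5 normalized counts without treatment, 966 ± 60.9 and 830 ± 182 after 8 and 24 h, and 74.4 ± 18.5 after 48 h (SD, n = 3 each). It rose at 8 h (0.94, SE 0.21, limma adjusted p = 0.00486) and fell at 48 h (-2.77, adjusted p = 8.44e-08). P2RX1, an ATP-gated channel, had 56.2, 204 and 112 at 48 h, against 1.41, 6.69 and 24.1 in untreated cells (3.83, adjusted p = 0.000528). Its value was 2.98 without untreated replicate 1, 4.68 without replicate 3 and 2.84 with a pseudocount of 8. TBXA2R, the thromboxane receptor, rose at 8, 24 and 48 h (1.02, 1.46 and 0.86). P2RY12, the ADP receptor that clopidogrel blocks, was listed at 0 in all libraries and is named after its values were seen.

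Among alpha granule cargo and granule biogenesis genes, 13 of 22 were tested. At 8 h 2 rose and 2 fell, at 24 h 6 rose and 1 fell, and at 48 h 7 rose and 1 fell, while 13%, 22.9% and 32.3% of all genes were called higher and 15.2%, 24.7% and 33.8% lower. The count that fell was 1 at 8 h if untreated or 8 h replicate 3 was left out. It was 0 at 24 h on omission of untreated replicate 1 or 2 or 24 h replicate 1 or 2, and 2 at 48 h on omission of 8 h replicate 1. FN1, fibronectin, had 2218, 2408 and 2276 normalized counts at 48 h, against 281, 104 and 392 in untreated cells (3.34, SE 0.35, limma adjusted p = 1.81e-06). TIMP1, a metalloproteinase inhibitor, averaged 9142 ± 646 at 48 h and 3588 ± 719 in untreated cells (1.36, adjusted p = 4.66e-07). RAB27A, a small GTPase of dense granule biogenesis, averaged 2930 ± 384 at 48 h and 9114 ± 272 in untreated cells and fell (-1.64, adjusted p = 1.47e-07). PPBP, a platelet chemokine precursor of the same family as PF4, did not reach the filter and was not tested. It lay between 2.75 and 24.1 in treated libraries and between 0 and 1.83 in untreated ones, levels that correspond to few reads. PF4V1 and F13A1 were listed at 0 in all libraries. These last 3 are named after their values were seen.

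Of 9 tested cytoskeletal genes, 4 rose and 3 fell at 48 h, and 2 rose without untreated replicate 1. Over all genes, 32.3% were called higher and 33.8% lower at 48 h, and 22.9% and 24.7% at 24 h. TUBB1, the beta tubulin of the platelet marginal band, had 8.59, 62.9 and 10.9 normalized counts at 48 h, against 386, 323 and 145 in untreated cells (-3.76, SE 0.76, limma adjusted p = 0.00063, and -4.62 without 48 h replicate 2). MYL9, a myosin light chain, averaged 278 ± 29.5 at 48 h and 112 ± 22.2 in untreated cells (1.32, adjusted p = 0.000257). Among 12 tested tetraspanins other than CD9, 6 rose and 4 fell at both 24 and 48 h, with medians of 0.32 and 0.78. CD53 averaged 2714 ± 291 at 48 h and 386 ± 188 in untreated cells (2.91, adjusted p = 3.18e-07), and CD37 averaged 1117 ± 169 at 48 h and 216 ± 98.7 in untreated cells (2.45, adjusted p = 2.52e-06). TSPAN17 averaged 540 ± 81.8 at 48 h and 4279 ± 533 in untreated cells (-2.99, adjusted p = 2.8e-09).

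Transcription factors of the megakaryocytic lineage moved in both directions. Of 11 tested, 2 rose and 3 fell at 8 h, 3 rose and 6 fell at 24 h, and 5 rose and 5 fell at 48 h, with medians of -0.16, -0.27 and -0.09. All genes had shares of 13%, 22.9% and 32.3% called higher and 15.2%, 24.7% and 33.8% lower at these times. With equal totals or quantile normalization 4 rose at 8 h. The 5 that rose at 48 h, named after their values were seen, were the homeobox factor MEIS1 (1.74), the ETS family repressor ETV6 (1.29), RUNX1 (1.21), GATA1 (0.51) and MAFG (0.22), with limma adjusted p of 1.35e-05, 3.63e-06, 0.00138, 0.000679 and 0.0274. MAFG lost its call at 48 h without the filter (0.22), with equal totals (0.03), and on omission of untreated replicate 1 (0.22) or 3 (0.19) or 48 h replicate 1 (0.19). At 24 h MAFG was instead called lower (-0.27, limma adjusted p = 0.014). That call was lost with equal totals (-0.09) and quantile normalization (-0.01), among others. TAL1, which acts in both erythroid and megakaryocytic cells, averaged 809 ± 142 at 48 h and 5339 ± 876 in untreated cells (-2.72, SE 0.17, limma adjusted p = 1.7e-08). GFI1B, a repressor needed in both lineages, averaged 763 ± 190 at 48 h and 3393 ± 272 in untreated cells (-2.18, adjusted p = 2.39e-07). ZFPM1, the GATA1 partner FOG1, averaged 417 ± 76.7 at 48 h and 1968 ± 284 in untreated cells (-2.24, adjusted p = 5.07e-07). MAFK, a partner of NF-E2, averaged 455 ± 93.6 at 48 h and 1655 ± 158 in untreated cells (-1.87, adjusted p = 7.99e-08). NFE2, the other factor that fell at 48 h, averaged 2778 ± 701 then and 6306 ± 361 in untreated cells. NFE2 was also called lower at 24 h and is named after its values were seen. FLI1, an ETS factor of megakaryocytes, did not exceed 8.54 normalized counts in any library, and it is named after its values were seen.

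**Figure D4:**
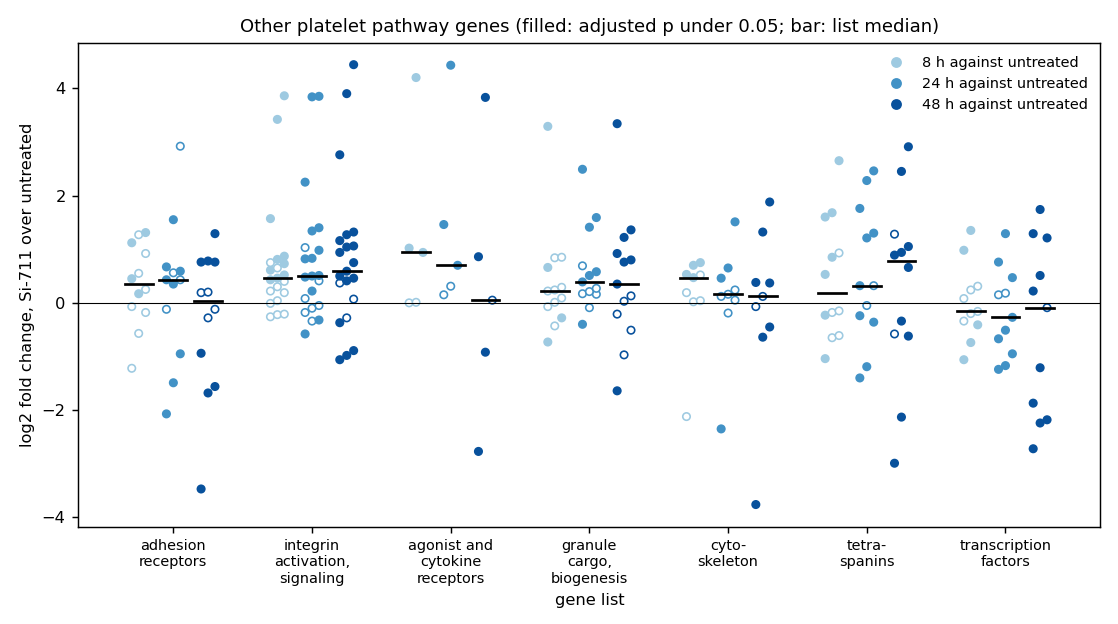
Log2 fold changes of the tested genes of 7 platelet pathway lists at 8, 24 and 48 h of Si-711 over untreated cells, with a bar at each list's median. Filled points have a limma adjusted p under 0.05. At 48 h the list medians lie between -0.09 for transcription factors and 0.78 for tetraspanins.

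Markers of several other cell types also differed between the groups, and their part in the results above was not tested. For the calls below, the shares over all genes were 13%, 22.9% and 32.3% higher at 8, 24 and 48 h. Those called lower were 15.2%, 24.7% and 33.8%. The 14 erythroid markers summed to between 47421 and 73113 normalized counts at 8 h, between 67618 and 79699 at 24 h and between 115750 and 121124 at 48 h, against 319715 to 618919 in untreated libraries, and 11 of them fell at each time. Most of each sum came from globin genes. At 48 h against 8 h the globin genes HBE1, HBG1 and HBG2, named after their values were seen, were called higher. In that comparison 5 other erythroid markers were called lower, beside 29.8% higher and 32.2% lower over all genes. The 12 monocyte markers summed to between 3402 and 4523 at 8 h, between 3390 and 4558 at 24 h and between 3883 and 4695 at 48 h, against 571 to 984 in untreated libraries. MPEG1 and S100A8 were at 0, 7 of the 12 were under 10 in all libraries, and the 3 tested rose at each time. The 11 lymphocyte markers in the table summed to between 723 and 1037 at 8 h, between 418 and 711 at 24 h and between 514 and 619 at 48 h, against 186 to 361 in untreated libraries, with CD8A and MS4A1 at 0 and 4, 2 and 3 of 5 tested higher. Endothelial cells also express VWF, and the 14 endothelial markers summed to between 2035 and 2503 at 8 h, between 2474 and 2930 at 24 h and between 1360 and 1668 at 48 h, against 4546 to 5200 in untreated libraries, with EMCN at 0 and 6 of the 14 under 10 in all libraries. Most of that sum was EGFL7, which averaged 1309 ± 136 normalized counts at 48 h and 4571 ± 335 in untreated cells and fell at each time (limma log2 fold changes -1.16, -0.91 and -1.81). Of the 6 endothelial markers tested, 1 rose and 2 fell at 8 h. At 24 h 2 rose and 1 fell, and at 48 h 2 rose and 3 fell. ESAM, an adhesion molecule that platelets also carry, rose at each time (1.47, 1.33 and 1.18). FLT1 rose at 24 h (1.53) and 48 h (1.04), and at 48 h its call was lost with equal totals (0.86), among others. PLVAP, at most 15.6 normalized counts, fell at 8 and 48 h, and SOX18 fell at 48 h. FLT1 and PLVAP are named after their values were seen. The 9 stromal markers, from cells that also make THBS1, summed to between 239 and 327 at 8 h, between 211 and 346 at 24 h and between 155 and 270 at 48 h, against 175 to 271 in untreated libraries. LUM was at 0, and 4 of the 9 were under 10 in all libraries. By limma 0 of the 4 tested were called against untreated cells at any time, with 0 at an unadjusted p under 0.05 there.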

How the data were processed

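Polyadenylated RNA of the 12 libraries was sequenced from strand-specific libraries, per the labels' protocols. The tools cutadapt, Salmon and DESeq2 and the build GRCh38 are named in the submitters' processing notes, while tool versions and the annotation used are not given in the sources used here. Values in the deposited table are a signal per gene, that is, read counts after normalization with DESeq2 by the authors. Between 51.5 and 73.5% of low values lay within 0.1 of a whole multiple of the value of 1 read, so whole reads were not recovered and no count test was run. Salmon estimates how reads divide among similar transcripts.

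Symbols came from a name table for 50026 identifiers and from GENCODE 29 for 267 more. Values were put on log2 after adding 1 and tested in R 4.3.3 by limma 3.58.1 in 1 fit over 4 groups with a trended prior variance (5.08 prior degrees of freedom), two-sided, with Benjamini-Hochberg adjustment over 15424 genes in each of 6 comparisons. Levels between genes were compared per kilobase of exon, which assumes no length correction in the deposited values. The fit was tested on simulated data.

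The members and the gene lists were chosen with earlier results of these data known. Named genes were, of each list, up to 4 with the largest change against untreated cells that passed the test and had a mean of at least 50, and per member with such a mean the 3 closest profiles; not all of them are printed. GP6, PECAM1, ZYX and TRAC were not analysed here, because a listed gene was kept only if its symbol matched exactly 1 row. Their expression was not examined. Alternatives were pseudocounts of 0.5 and 8, no filter, a mean of at least 50, equal totals, median centring, quantile normalization, the compared groups alone, a replicate block and leaving out each library.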

Additional observations from a re-analysis of the deposited data

Results flagged for a closer look

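The size of the change against untreated cells differed between exposure times for several genes, tested as the difference between the treated groups in limma. ITGA2B differed at 24 h against 8 h (1.03, adjusted p = 0.0154), at 48 h against 24 h (0.66, adjusted p = 0.0451) and at 48 h against 8 h (1.69, adjusted p = 6.83e-05). The first call was lost without 8 h replicate 1 (0.90) or 24 h replicate 2 (0.81), and the next with equal totals (0.28) or without 24 h replicate 3 (0.50), among others.

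At 48 h against 8 h, 29.8% of all genes were called higher and 32.2% lower. The genes named here had been picked for large changes against untreated cells in the same data. At 48 h against 8 h, higher values were found for PLCB2 (1.02), PLCG2 (1.19), TIMP1 (0.70) and CD37 (0.85), with limma adjusted p of 0.000243 to 0.0135. Lower values in the same comparison were found for PEAR1 (-1.50), CD47 (-0.92), F2RL3 (-3.71), P2RY1 (-0.93), RAB27A (-0.91), CAVIN2 (-1.34) and TSPAN17 (-1.95), and for the transcription factors TAL1 (-1.66), ZFPM1 (-1.91), GFI1B (-1.44) and MAFK (-1.46). Their limma adjusted p ran from 1.92e-08 for F2RL3 to 0.0082 for P2RY1. F2RL3 and CAVIN2, a caveolar coat protein, changed direction with time, with log2 fold changes over untreated cells of 0.94 and 0.70 at 8 h and of -2.77 and -0.64 at 48 h. The CAVIN2 calls were lost without single libraries, at 8 h without untreated replicate 1 (0.62) or 2 (0.61) or 8 h replicate 1 (0.67) or 2 (0.72), and at 48 h without untreated replicate 3 (-0.47) or 48 h replicate 1 (-0.51). CD47, the thrombospondin receptor, rose at 8 h (1.12, adjusted p = 0.000993) and was at 0.20 at 48 h (adjusted p = 0.358).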

How the results depend on the processing

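Each call of the 5 tested members against untreated cells was the same under every alternative run, except that PLEK was not tested with a mean of at least 50. The members' fold changes kept direction and call in 585 of 624 values, and 8 gained and 10 lost a call, all between treated times. Another 21 reversed sign, none of them called. ITGB3 at 24 h against 8 h was 0.18 without 8 h replicate 2, 0.25 without 24 h replicate 1 and 0.01 without 24 h replicate 3 (lowest -0.42), and THBS1 there was 0.18 without 24 h replicate 1 (lowest -0.63). THBS1 at 48 h against 24 h was -0.09 with equal totals and -0.13 without 24 h replicate 1 (highest 0.68), and at 48 h against 8 h it was -0.30 with equal totals, -0.05 with quantile normalization, -0.17 without 8 h replicate 1 and -0.14 without 48 h replicate 2 (highest 0.24). PLEK was 0.04 at 24 h against 8 h without 8 h replicate 2 (lowest -0.69), 0.44 with quantile normalization and 0.10 without 24 h replicate 2 at 48 h against 24 h (lowest -0.57), and 0.02 with quantile normalization at 48 h against 8 h. CD9 at 24 h against untreated cells was 0.16 with equal totals, 0.06 and 0.04 without untreated replicates 2 and 3, and 0.16 without 24 h replicate 1 (lowest -0.16). At 48 h against 24 h CD9 was 0.05 with median centring, 0.04 with quantile normalization and 0.02 without 48 h replicate 2 (lowest -0.32). The lowest and highest values are over leaving out single libraries. The cause was not tested.

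Without the filter, 1 member, VWF, was called lower at 48 h in each comparison, and the count of members higher at 48 h against 24 h was 0, as with equal totals. With equal totals 1 member, CD9, was lower at 48 h against 24 h and against 8 h, and at 48 h against 8 h also with a mean of at least 50 or the compared groups alone. Leaving out single libraries gave 0 to 1 members higher at 24 h against 8 h and at 48 h against 24 h, and 0 to 1 lower at 48 h against 8 h. It moved all genes called at 24 h against 8 h, 2798 in full, to between 1396 and 3151, with 1396 without 8 h replicate 3, 1416 without 24 h replicate 1 and 1624 without 8 h replicate 1.

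Scaling moved the split of calls. At 48 h against untreated cells 4989 genes were higher and 5218 lower, against 4146 and 6154 with equal totals (median of all genes -0.24) and 5232 and 4940 with median centring. At 8 h the split was 2001 and 2346, against 2887 and 1083 with equal totals (median 0.14) and 1658 and 3230 with median centring (median -0.10). At 24 h it was 3530 and 3813, against 4761 and 2657 (median 0.20) and 2839 and 4772 (median -0.12). At 24 h against 8 h it was 1282 and 1516, against 1022 and 1917 with median centring. At 48 h against 24 h it was 3874 and 4184, against 1829 and 6607 with equal totals and 5174 and 3239 with median centring, and at 48 h against 8 h 4602 and 4965, against 2859 and 6791 with equal totals. Calls of the other named genes against untreated cells kept direction in 1512 of 1512 values and were lost in 78, and 108 of 1512 counts of lists moved by over 1.5 times.

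Samples with the same replicate number shared deviations weakly (r -0.0699 to 0.142), so the numbers were not taken as pairs. With a replicate block 4554, 7515 and 10286 genes were called at 8, 24 and 48 h against untreated cells, against 4347, 7343 and 10207 without it, and no call of a member changed.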
